A study of Homo sapiens with 8 samples.

Results

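The genes described here are 10 members of the bone morphogenetic protein (BMP) pathway: the ligands BMP2, BMP4, BMP6 and GDF6, the secreted BMP-binding proteins BMPER and GREM1, and the target genes ID1, ID2, ID3 and SMAD6. They were found by gene symbol in a table of 46427 genes, and all 10 were among the 17044 genes with enough counts to be tested. They were chosen by their measured levels in these 8 libraries and the differences between conditions, in particular the opposite behaviour of BMP2 and BMP4. Their values are therefore a description and carry no p-value.

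RNA was sequenced from RPE-1, an hTERT-immortalised (telomerase-expressing) cell line that derives from human retinal pigment epithelium. Of 8 libraries, 4 were taken at 1 h and 4 at 6 h, and each set holds a control, cells with extracellular vesicles (EV), cells with all-trans-retinal (atRAL) and cells with both. The EV came from tonsil-derived mesenchymal stem cells and were added at 2000000000 particles per ml. The retinal, the aldehyde that light frees from visual pigment and that is toxic to retinal cells in excess, was added at 25 µM. In every condition 2500000 cells were treated, and each condition is 1 library of 1 cell line. The labels name no separate cultures, so the SEs and p-values reflect no more than how these libraries vary, which may be technical.

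BMPs are secreted dimers that bind a pair of type I and type II receptors, and the type I receptor then phosphorylates SMAD1, SMAD5 and SMAD9. These join SMAD4, enter the nucleus and raise transcription of direct targets, among them the ID genes and the inhibitory SMAD6. Antagonists such as gremlin hold the ligands outside the cell, and SMAD6 closes a negative feedback loop inside it. In the developing eye, BMP signals take part in specifying the retinal pigment epithelium and in patterning the retina.

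The genes lie on several chromosomes, in GRCh38.p14 coordinates of RefSeq. The ligand genes are BMP2 at chr20:6767686-6780246, BMP4 at chr14:53949736-53956891, BMP6 at chr6:7726099-7881728 and GDF6 at chr8:96142333-96160806. BMPER is at chr7:33904915-34156427 and GREM1 at chr15:32718004-32745106. The targets are ID1 at chr20:31605289-31606510, ID2 at chr2:8682056-8684461, ID3 at chr1:23557926-23559501 and SMAD6 at chr15:66702236-66782849.

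Libraries held 45566237 to 71822269 counts. Of 10 marker genes of retinal pigment epithelium, MITF, OTX2 and RDH5 were at 1 CPM (counts scaled to library size) or more in every library, while 6, among them RPE65 and RLBP1, stayed under 1 CPM in all of them. KRT8 and KRT18, keratins of simple epithelia, were abundant, at 606 to 803 CPM and 352 to 522 CPM, but CDH1 did not exceed 0.113 CPM. The summed level of 6 mesenchymal markers was 5832 to 7490 CPM, most of it from VIM, at 4568 to 5958 CPM. Of the 6, 5 were at 1 CPM or more in every library, and ENG was at 0.482 to 1.10 CPM. The 6 lymphoid and myeloid markers summed to 0.112 to 0.678 CPM, and 3 endothelial markers to 0.938 to 3.47 CPM.

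The direct targets are the point where ligands and antagonists meet, so the 250 bases before the annotated transcription start of ID1, ID2, ID3 and SMAD6 are shown. They are RefSeq sequence of GRCh38.p14, written 5′ to 3′ on the strand of the gene. Capitals mark GGAGCC, a GC-rich element that SMAD1 and SMAD5 can bind, and CAGAC, the core of the SMAD box with its flank, each on either strand. The windows are chr20:31605039-31605288 on the plus strand for ID1, chr2:8681806-8682055 on the plus strand for ID2, chr1:23559502-23559751 on the minus strand for ID3 and chr15:66701986-66702235 on the plus strand for SMAD6.
ID1: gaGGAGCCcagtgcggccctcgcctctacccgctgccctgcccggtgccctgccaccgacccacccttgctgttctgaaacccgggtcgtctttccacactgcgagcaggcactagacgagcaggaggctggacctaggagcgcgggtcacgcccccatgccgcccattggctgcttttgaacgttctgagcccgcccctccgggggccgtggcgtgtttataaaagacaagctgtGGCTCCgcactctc
ID2: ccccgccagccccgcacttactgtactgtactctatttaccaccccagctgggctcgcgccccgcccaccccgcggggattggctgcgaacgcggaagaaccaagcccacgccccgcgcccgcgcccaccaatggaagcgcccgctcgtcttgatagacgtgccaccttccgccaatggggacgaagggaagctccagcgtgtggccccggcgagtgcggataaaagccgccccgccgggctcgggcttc
ID3: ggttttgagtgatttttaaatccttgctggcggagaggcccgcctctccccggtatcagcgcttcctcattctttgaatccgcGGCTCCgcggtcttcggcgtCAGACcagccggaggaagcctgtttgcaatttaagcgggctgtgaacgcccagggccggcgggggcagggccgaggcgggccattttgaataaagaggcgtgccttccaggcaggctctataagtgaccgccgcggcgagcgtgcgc
SMAD6: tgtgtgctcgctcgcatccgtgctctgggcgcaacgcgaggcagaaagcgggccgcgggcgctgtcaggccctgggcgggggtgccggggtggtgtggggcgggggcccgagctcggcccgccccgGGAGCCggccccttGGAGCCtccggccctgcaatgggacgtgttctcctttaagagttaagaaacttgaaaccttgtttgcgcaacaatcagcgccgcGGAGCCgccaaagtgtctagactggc

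The 4 windows were rich in G and C, at 66.0% for ID1, 69.2% for ID2, 62.0% for ID3 and 68.0% for SMAD6. GGAGCC was found 3 times before SMAD6, starting 124, 110 and 26 bases before the start, and at 248 and 14 bases before the start of ID1. It was found once before ID3, at 167 bases, with CAGAC at 147 bases. Of 35116 promoter windows of this length searched on both strands, 30.6% held GGAGCC and 38% held CAGAC. The window of ID2 held neither. The other elements searched were GGCGCC, a related SMAD element held by 16.4% of windows, TGACGTCA, the cAMP response element held by 1.65%, and the retinoic acid direct repeat with a spacer of 5 bases, held by 0.00285%. None of the 3 was in these 4 windows. GGCGCC was found before the other members BMP4, BMPER and GREM1. A match describes letters only, and the missing match in ID2 says nothing about binding elsewhere.

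**Figure D1:**
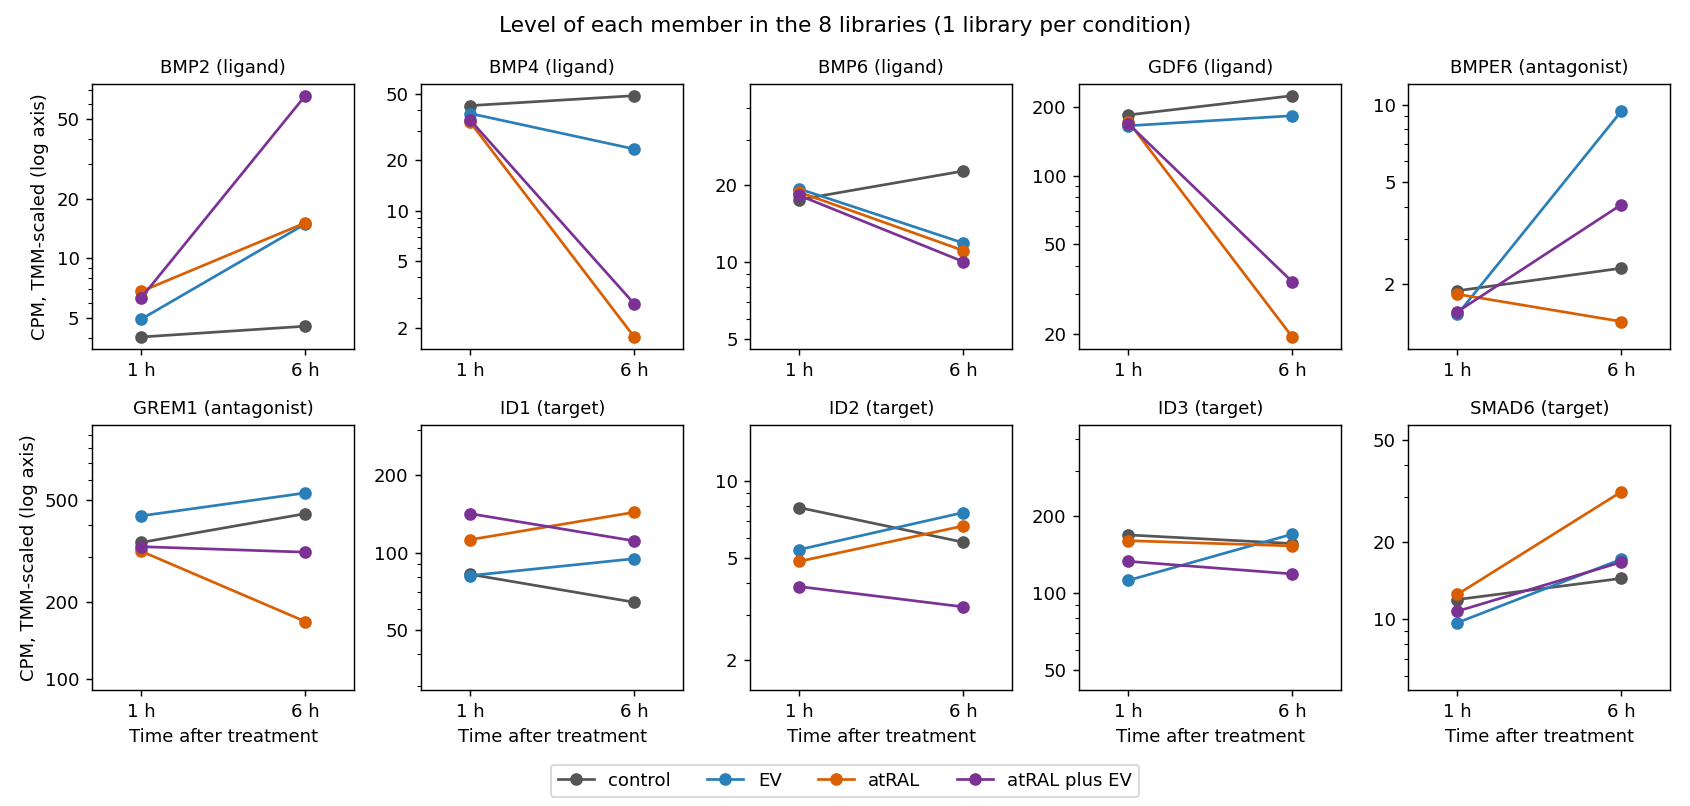
CPM of the 10 genes after TMM scaling (log axis) at 1 h and 6 h, 1 point per library, with colour for the condition. At 1 h the 4 points of BMP4, BMP6 and GDF6 lie close together; at 6 h BMP2 is highest with atRAL plus EV (65.8 CPM) and BMP4 lowest with atRAL (1.76 CPM).

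Levels below are CPM after TMM scaling, which adjusts each library's total for a few very abundant genes, and always run in the order control, EV, atRAL, atRAL plus EV. Levels of different genes are compared only as TPM, which also divide by transcript length. A log2 ratio between 2 libraries was taken after adding a prior count of 2. It has no replicate check. Ratios to the 6 h control are read against the share of genes that differ by at least 2-fold in the same pair. That share is over all genes at 100 counts or more in either library. Ratios of other pairs are given without such a share. A fitted log2 fold change sets 2 libraries against 2, for example the pair with atRAL at 6 h against the pair without, allowing for EV. It is given ± its standard error (SE), and a gene is called where edgeR's quasi-likelihood test gives an adjusted p under 0.05 over all 17044 genes.

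By median TPM over the 8 libraries the order was ID3 (408), ID1 (244), GDF6 (112), GREM1 (85.8), BMP4 (43.4), BMP6 (11.6), ID2 (10.6), SMAD6 (7.40), BMP2 (4.50) and BMPER (0.932). ID3, whose TPM ran from 283 to 437, overlapped ID1, at 157 to 362. GDF6 at 13.3 to 152 overlapped GREM1 at 44.3 to 128 and BMP4 at 2.37 to 63.3. The ranges of ID1 and GDF6 did not overlap, and those of BMP6, ID2, SMAD6, BMP2 and BMPER each overlapped the next in this order. BMP4 varied 27.6-fold in CPM between its lowest and highest library, BMP2 16.3-fold and GDF6 11.7-fold, against 1.52-fold for ID3.

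BMP2 and BMP4, a pair of closely related ligands, went in opposite directions from the control at 6 h. With EV on top of atRAL both were higher than with atRAL alone, at log2 ratios of 2.12 and 0.65. BMP2 stood at 4.03, 4.96, 6.83 and 6.35 CPM at 1 h. At 6 h it stood at 4.57, 14.9, 15.1 and 65.8 CPM. The control was the lowest of the 4 libraries at both times, and the library with both agents at 6 h was far above the other 7. EV alone was 3.25-fold above the 6 h control, atRAL alone 3.29-fold and both together 14.3-fold. At 2-fold or more, 1.06% of genes differed between EV and control at 6 h, 9.25% between atRAL and control, and 7.09% between both agents and control.

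For BMP2 the differences of the single agents added up on the log2 scale, at 1.70 for EV and 1.72 for atRAL. Their sum was 3.42 and the difference with both was 3.84. The departure from the sum, 0.42, lay under the 2-fold mark, which 2.65% of genes passed at 6 h. EV on top of atRAL gave a ratio of 4.35-fold, and atRAL on top of EV one of 4.41-fold. The fitted difference was 1.95 ± 0.14 for atRAL at 6 h and 1.93 ± 0.14 for EV at 6 h. At 1 h it was 0.55 for atRAL and 0.09 for EV.

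BMP4 stood at 42.4, 38.0, 33.6 and 34.6 CPM at 1 h. At 6 h its levels were 48.5, 23.3, 1.76 and 2.78 CPM. The 6 h libraries with atRAL were the lowest of all 8 and lay far below the others, and EV alone lay between them and the control. In single pairs BMP4 was 27.1-fold lower with atRAL than in the 6 h control, and 17.3-fold lower with both agents. These are bulk RNA values, in which fewer cells of a kind and less RNA per cell cannot be told apart. The counts behind the low levels were 109 and 172 reads, well over the floor of 3 counts.

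Vesicles went with BMP4 in opposite directions in the 2 backgrounds at 6 h. Without atRAL the log2 ratio of EV to control was −1.06, and with atRAL it was 0.65. Because of that the sum of the single differences, −5.82, was larger in size than the joint difference of −4.11. The departure of 1.70 was past the 2-fold mark, above which 1.02% of genes lay. The fitted difference with atRAL at 6 h was −3.90 ± 0.49, and that with EV at 6 h, −0.48 ± 0.46, averages over those opposite signs.

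The ratio of both ligands turned over between the conditions. Per length, BMP4 was 19.6 times BMP2 in the control at 1 h and again 19.6 times in the control at 6 h. At 6 h the TPM ratio of BMP4 to BMP2 was 2.92 with EV, 0.218 with atRAL and 0.0776 with both. BMP2 made up 4.85% of the sum of both transcripts in the 6 h control, 25.5% with EV, 82.1% with atRAL and 92.8% with both. In the 1 h libraries this share was 4.85% to 9.81%. The sum itself did not follow the share: it was 66.6 TPM in the 6 h control, 39.1 with EV, 13.2 with atRAL and 49.1 with both agents.

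**Figure D2:**
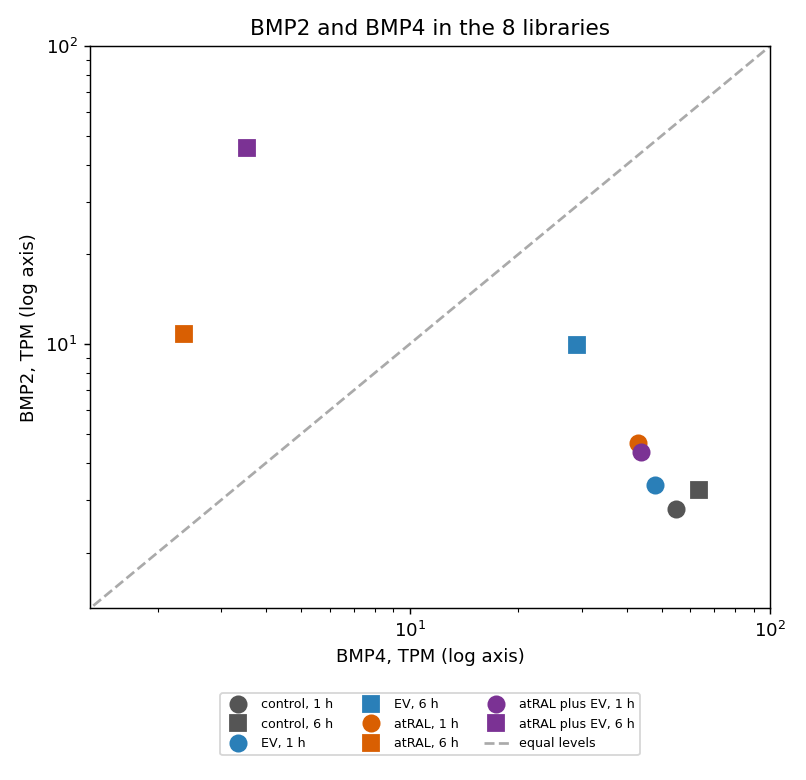
TPM of BMP2 (vertical, log axis) against BMP4 (horizontal, log axis) in the 8 libraries, circles for 1 h and squares for 6 h. The line marks equal levels; 6 libraries lie below it and both 6 h libraries with atRAL above it, at 10.9 and 45.5 TPM of BMP2.

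BMP6, a ligand of a separate BMP subgroup, also known for its part in iron regulation in liver, varied less, 2.26-fold between its lowest and highest library. Its 1 h levels were 17.6, 19.4, 18.8 and 18.2 CPM. At 6 h they were 22.7, 11.9, 11.1 and 10.1 CPM. All 3 treated libraries of 6 h lay below the control and below every 1 h library. The log2 ratio to the 6 h control was −0.93 with EV, −1.03 with atRAL and −1.17 with both. Both agents differed from atRAL alone by −0.14 and from EV alone by −0.24. BMP6 overlaps TXNDC5, with 30115 to 47561 counts per library, and the readthrough BLOC1S5-TXNDC5, with 95 to 3310. The strand setting of the counting is not given, so reads of the shared end cannot be told apart.

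GDF6, a ligand whose mutations cause malformations of the human eye, had the highest TPM of the 4 ligands in every library but that with both agents at 6 h. It stood at 185, 166, 173 and 169 CPM at 1 h. At 6 h it stood at 225, 184, 19.3 and 33.9 CPM. The pattern was that of BMP4, with both 6 h libraries with atRAL far below the other 6. GDF6 was 11.6-fold lower with atRAL than in the 6 h control and 6.65-fold lower with both agents. With EV its log2 ratio was −0.29 without atRAL and 0.81 with it, and the departure from the sum of the single differences was 1.10.

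The 4 ligands summed to 170 to 192 TPM at 1 h. At 6 h the sum was 234 TPM in the control, 164 with EV, 34.0 with atRAL and 77.9 with both. BMP2 was 1.38% of that sum in the 6 h control and 58.4% with both agents.

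Among the antagonists, BMPER, the vertebrate crossveinless-2, binds BMPs outside the cell and can dampen or promote their signal. It stood at 1.88, 1.52, 1.82 and 1.55 CPM at 1 h. At 6 h its levels were 2.30, 9.43, 1.42 and 4.07 CPM. Both 6 h libraries with EV lay above all 6 others, and atRAL alone at 6 h was the lowest of the 8. EV alone was 4.07-fold above the 6 h control, and EV with atRAL had a log2 ratio of 1.50 to atRAL alone. The fitted difference was 1.79 ± 0.19 for EV at 6 h and −0.98 ± 0.19 for atRAL at 6 h. Counts ran from 83 to 674, so BMPER is the least deeply counted of the 10.

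GREM1, gremlin 1, binds BMP2 and BMP4 and keeps them from their receptors. Its 1 h levels were 343, 435, 316 and 329.7 CPM. At 6 h they were 444, 535, 168 and 314 CPM. In CPM, EV alone was the highest library at both times and atRAL alone the lowest; in TPM atRAL alone was lowest at 6 h only. The log2 ratio to the 6 h control was −1.40 with atRAL and −0.50 with both agents, and EV on top of atRAL gave 0.90. Against the control, EV at 6 h gave 0.27 in CPM but −0.15 in the deposited TPM, so this small difference has no stable sign. GREM1 overlaps the antisense gene GREM1-AS1, which had 6 to 28 counts.

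**Figure D3:**
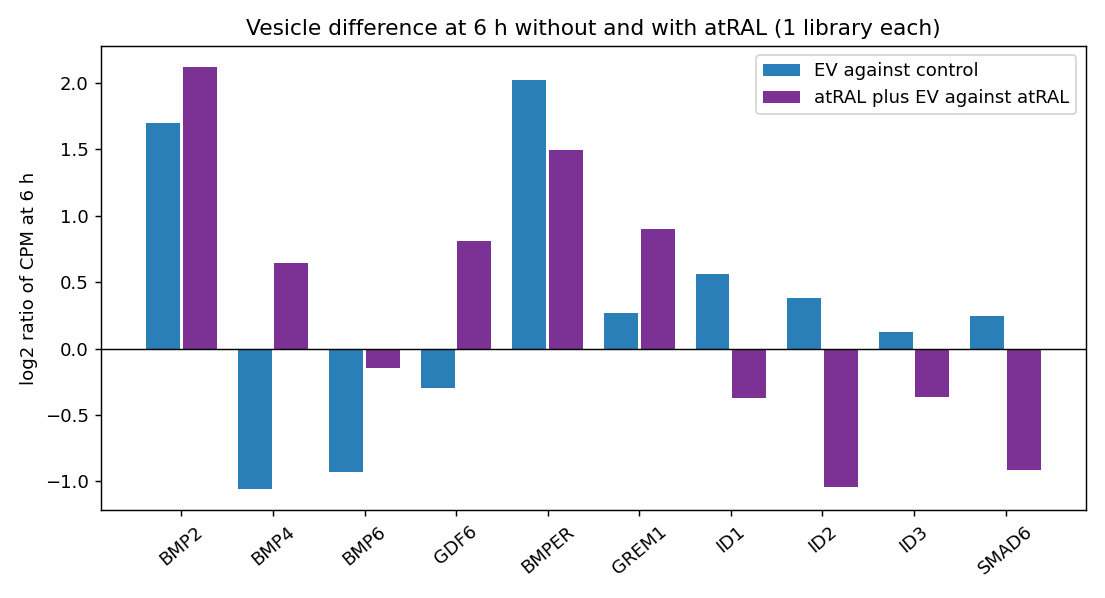
Log2 ratio of CPM at 6 h for EV against control (blue) and for atRAL plus EV against atRAL (purple), 1 library each, so bars carry no error. BMP2, BMPER and GREM1 are above 0 in both, BMP6 below 0 in both, and BMP4, GDF6, ID1, ID2, ID3 and SMAD6 differ in sign.

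The ID proteins are helix-loop-helix proteins without a DNA-binding domain that capture E proteins and so block differentiation factors. ID1 stood at 82.2, 81.3, 112 and 142 CPM at 1 h, and at 63.9, 94.6, 144 and 111 CPM at 6 h. It was higher in both libraries with atRAL than in both without at either time. The fitted difference with atRAL was 0.63 ± 0.26 at 1 h and 0.70 ± 0.26 at 6 h, and neither was called. The fitted values of both times differed by 0.07.

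ID2 was far less abundant, at 7.89, 5.41, 4.86 and 3.87 CPM at 1 h. At 6 h it stood at 5.78, 7.54, 6.69 and 3.23 CPM. The library with both agents was the lowest at either time. At 6 h the single agents had log2 ratios to the control of 0.38 for EV and 0.21 for atRAL, but both together −0.83. That departure, −1.43, passed the 2-fold mark on the lower side, as 1.63% of genes did.

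ID3 kept the narrowest range, with 168, 112, 159.97 and 133 CPM at 1 h. At 6 h its levels were 156, 169.7, 153 and 119 CPM. Here too the library with both agents was the lowest of the 6 h set, and at 1 h EV alone was lowest. The fitted difference with EV at 1 h was −0.43 ± 0.13 and that with atRAL at 6 h −0.27 ± 0.13. The 3 ID transcripts together came to 482 to 683 TPM at 1 h. In the 6 h libraries they came to 579.9, 659, 784 and 579.5 TPM.

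SMAD6, which binds activated type I receptors and blocks SMAD1 and SMAD5, stood at 11.9, 9.66, 12.5 and 10.7 CPM at 1 h. Its levels at 6 h were 14.4, 17.1, 31.4 and 16.7 CPM. Only the library with atRAL alone stood apart, at a log2 ratio of 1.12 to its control. With both agents the ratio was 0.21, so EV on top of atRAL went with a difference of −0.91. The departure from the sum was −1.16. Between 1 h and 6 h with atRAL the fitted difference was 0.98 ± 0.21, and without atRAL it was 0.55 ± 0.21.

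**Figure D4:**
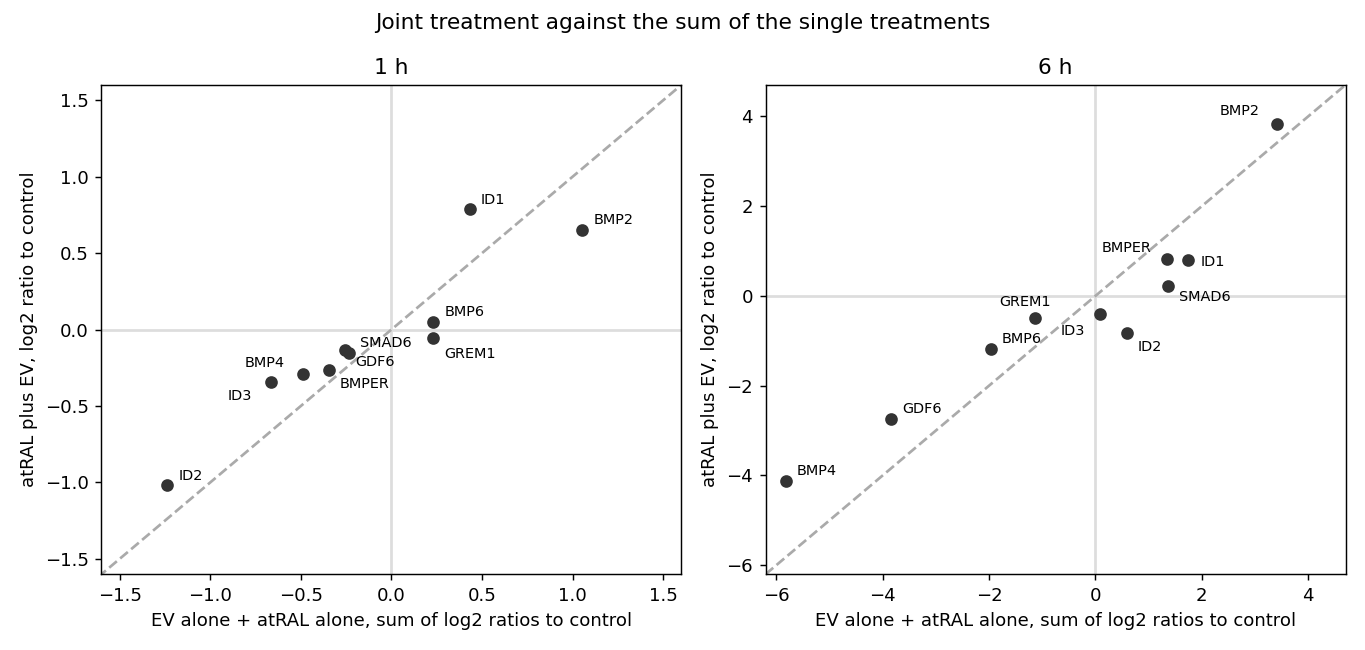
Log2 ratio of CPM to the control of the same time with both agents (vertical) against the sum of the ratios with EV alone and atRAL alone (horizontal), for 1 h and 6 h; the dashed line marks equality. At 6 h BMP4 and GDF6 lie above the line by 1.70 and 1.10, and ID2, SMAD6 and ID1 below it by 1.43, 1.16 and 0.94.

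At 6 h the 4 targets all lay below the sum of the single differences, ID1 by 0.94 and ID3 by 0.49 besides ID2 and SMAD6. The ligands BMP4, BMP6, GDF6 and BMP2 and the antagonist GREM1 lay above it, and BMPER below it by 0.53. At 1 h the departures ran from −0.40 for BMP2 to 0.35 for ID1. All 10 departures of a time come from the same 4 libraries and have no replicate check. At 6 h only those of BMP4, GDF6, ID2 and SMAD6 passed the 2-fold mark, which 2.65% of genes passed. The share of all genes above or below the sum was not taken, so nothing is read from the side on which a group lay.

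In the fits, 6 of the 10 genes were called for atRAL at 6 h: BMP2 higher and BMP4, BMP6, GDF6, BMPER and GREM1 lower. The background was 30.2% of all genes tested, 15.9% higher and 14.2% lower. For atRAL at 1 h none was called, nor by DESeq2, with a background of 0.00587%. The difference between the times was called for BMP2, at 1.40 ± 0.20, and for GDF6, at −2.95 ± 0.42, with a background of 13.4%. That of BMP4, −3.66 ± 0.63, was larger in size but not called in this fit. DESeq2, limma-voom, limma on FPKM and edgeR without a filter did call it, at −3.73 to −2.81. For EV, none was called at 1 h, nor by DESeq2 (background 0.205%), and at 6 h BMP2 and BMPER were called, both higher (background 1.7%, and 1.09% higher). Between 6 h and 1 h none was called without atRAL, nor by DESeq2 (background 0.158%). With atRAL, SMAD6 was called higher and BMP4 and GDF6 lower (background 20.2%). These contrasts served to choose the genes, so nothing is read from the calls or their counts, whichever method gave them.

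Calls and sizes were read again with each library left out, which leaves 1 residual degree of freedom in place of 2. A 1 h library does not enter a difference at 6 h, so leaving it out takes from the estimate of the spread and not from the difference. Without a 6 h library, a difference at 6 h is 1 library against 1, and its spread is taken from the 1 h libraries alone. Without any one 1 h library, BMP6 was not called for atRAL at 6 h, with its difference still at −0.65. BMPER for EV at 6 h was not called either, at 1.79 to 1.80, nor was BMP2 without the control, EV or atRAL library of 1 h, at 1.93. The difference between times, which the 1 h libraries do enter, was not called without any one of them, at 1.18 to 1.59 for BMP2 and −3.02 to −2.89 for GDF6. Some sizes did move with single libraries. BMP6 stood at −0.24 and lost its call for atRAL at 6 h without either 6 h library lacking EV. BMPER stood at −0.70 and lost its call without the EV library or the library with both agents at 6 h. SMAD6 between times with atRAL stood at 0.64 and lost its call without the atRAL library of 1 h or of 6 h. ID1 and SMAD6 for atRAL at 6 h stood at 1.16 and 1.12 without either 6 h library with EV, and ID2 and ID3 at −1.22 and −0.52 without either lacking EV. edgeR called these 4 there, but each is 1 library against 1, so the calls carry no replicate check.

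The rest of the pathway was read from 86 further genes in 7 lists, of which 62 could be tested. For atRAL at 6 h, 18 rose and 13 fell, which is 50% of those tested against the background of 30.2%. Their median log2 fold change was 0.11, and that of all genes −0.01. All 31 called genes went the same way with and without EV, that is, in 2 of 2 pairs of libraries. The fit averages these pairs and counts their disagreement as spread, so this is no separate check of the calls. Without any one 1 h library 24 to 26 genes were called, all of them among the 31. Without a 6 h library the difference is 1 library against 1, and some of the 31 were lost while other genes were called. The lists were written with earlier results of these data known.

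Of the other antagonists and extracellular modulators, 5 of the 13 tested fell while 1 rose. FST, follistatin, which binds activins and some BMPs, fell by 1.52 ± 0.20 in log2 units (adjusted p = 0.0024), from 14.6 and 16.4 CPM to 3.75 and 7.52 CPM. NOG, noggin, fell by 1.44 ± 0.38 (adjusted p = 0.024), but this call was lost without any one of the 8 libraries, at an adjusted p of 0.054 to 0.1 and a difference of −1.45 to −1.43. NOG had 11 to 47 counts per library.

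KCP, the kielin/chordin-like protein, was the exception and rose by 3.53 ± 0.41 (adjusted p = 0.00085). Its counts at 6 h were 22 in the control, 11 with EV, 330 with atRAL and 56 with both agents. The level was by far highest with atRAL alone, and the direction was the same in both pairs. Without a 6 h library the difference is 1 library against 1 and stood at 2.54 to 4.14, and without a 1 h library at 3.51 to 3.52. The call was lost with limma on log2(FPKM + 1).

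Among 10 receptors and co-receptors tested, 5 rose and 2 fell. BMPR1B, a type I receptor, rose by 1.00 ± 0.22 (adjusted p = 0.011), from 1.79 and 1.69 CPM to 2.97 and 4.10 CPM. ACVR1, the type I receptor ALK2, rose by 0.82 ± 0.10 (adjusted p = 0.00086), from 41.2 and 43.9 CPM to 81.6 and 68.8 CPM. TGFBR3, the co-receptor betaglycan, rose by 1.12 ± 0.21 (adjusted p = 0.0067). RGMA, a membrane-anchored BMP co-receptor, fell by 1.26 ± 0.30 (adjusted p = 0.016), with 14 to 54 counts in the 6 h libraries. The call of BMPR1B was lost without either 6 h library with EV, and over all fits without a 6 h library its difference was 0.72 to 1.27. That of RGMA was lost without either 6 h library lacking EV, and with DESeq2, and its difference without a 6 h library was −1.27 to −1.26.

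All 10 SMADs and regulators listed were tested, and 6 rose and none fell at an adjusted p under 0.05. SKIL, a repressor of SMAD complexes that TGF-beta also induces, rose by 1.35 ± 0.10 (adjusted p = 1e-04). It stood at 71.1 and 68.4 CPM without atRAL and at 204 and 154 CPM with it. SMAD9, a receptor-regulated SMAD of the BMP branch, rose by 0.66 ± 0.14 (adjusted p = 0.011). SMAD9 was no longer called when the 6 h control or 6 h atRAL library was left out, and its difference without a 6 h library ran from 0.43 to 0.89. SMURF1, a ubiquitin ligase that marks BMP SMADs and receptors for breakdown, rose by 0.61 ± 0.10 (adjusted p = 0.0031). SMAD4, the shared partner, rose by 0.58 ± 0.08 (adjusted p = 0.0015). The median over this list was 0.40.

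Only 1 of 7 other BMP target genes tested was called. HEY1, a repressor induced by Notch and by BMPs, rose by 2.65 ± 0.58 (adjusted p = 0.019). Its counts at 6 h were 22 in the control, 34 with EV, 271 with atRAL and 79 with both. Like KCP and SMAD6, it was highest with atRAL alone. Its call was lost without any one 1 h library, at an adjusted p of up to 0.058 and a difference of 2.64. Without a 6 h library the difference was 1.42 to 3.86. SMAD7, the other inhibitory SMAD, was not called, at 0.15 ± 0.07 (adjusted p = 0.18).

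Of the E proteins that ID proteins capture, TCF12 rose by 0.37 ± 0.08 (adjusted p = 0.01) and TCF4 fell by 0.63 ± 0.11 (adjusted p = 0.0041). TCF3 was at 0.13 ± 0.12 (adjusted p = 0.44). TCF12 lost its call when the 6 h control or 6 h atRAL library was left out, and its difference without a 6 h library was 0.27 to 0.46. The only other ligand called of 6 tested was GDF11, which acts through activin receptors and fell by 0.48 ± 0.08 (adjusted p = 0.004).

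In the TGF-beta and activin branch, which shares SMAD4 with the BMP branch, 4 of 13 genes rose and 4 fell. TGFB2 fell by 0.99 ± 0.16 (adjusted p = 0.0079) and TGFB3 by 0.93 ± 0.21 (adjusted p = 0.014). The type II receptor TGFBR2 fell by 0.91 ± 0.10 (adjusted p = 0.00066). SMAD2, a receptor-regulated SMAD of this branch, rose by 0.63 ± 0.08 (adjusted p = 0.0013).

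**Figure D5:**
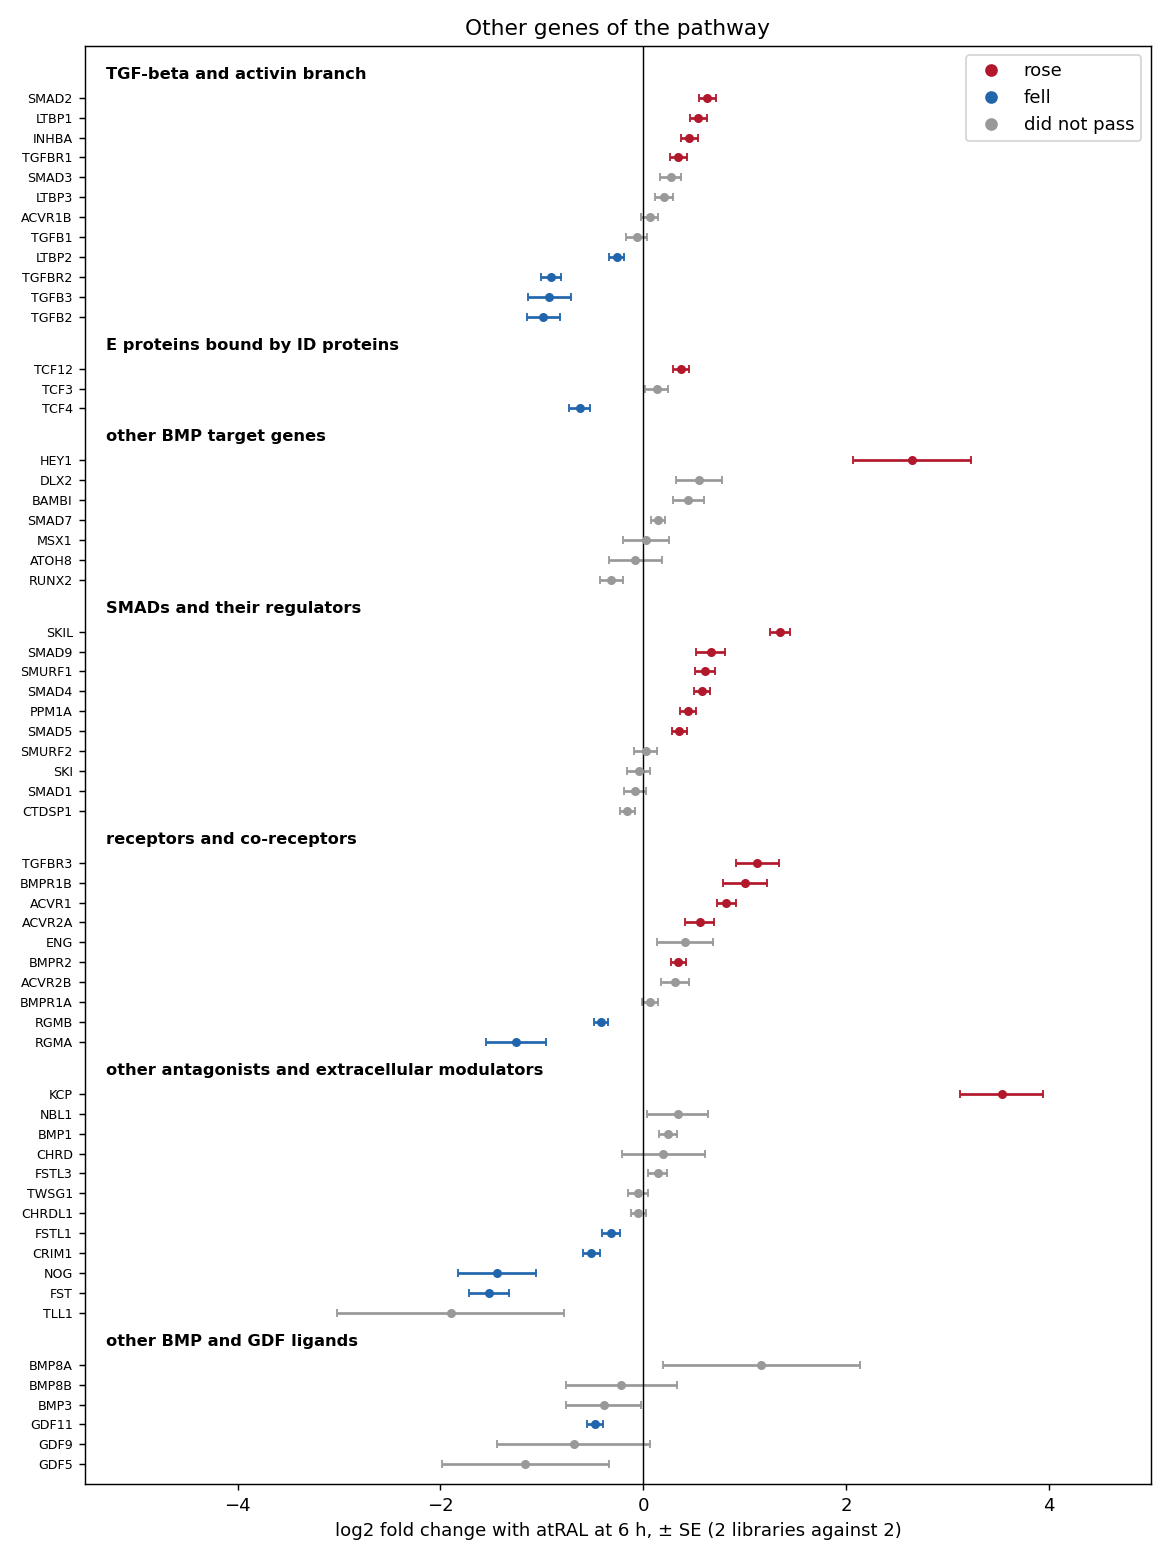
Fitted log2 fold change ± SE (horizontal) for atRAL at 6 h, 2 libraries against 2, of 60 of the 62 tested pathway genes by list. Red points rose (18), blue points fell (12) and grey points did not pass an adjusted p under 0.05.

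At 1 h no pathway gene was called for atRAL by edgeR, with 5 at an unadjusted p under 0.05, and none by DESeq2. Nor was any called for EV at 1 h, with 6 at an unadjusted p under 0.05 and 3 called by DESeq2. For EV at 6 h 4 genes rose, 6.45% of those tested against 1.7% of all. SMURF2, a ubiquitin ligase related to SMURF1, rose by 0.67 ± 0.11 (adjusted p = 0.039), and INHBA, the activin A subunit, by 0.52 ± 0.08 (adjusted p = 0.033). RGMB, a co-receptor, rose by 0.47 ± 0.07 (adjusted p = 0.027). In 2 of 2 pairs, the same ones that the fit averages, all 4 were higher. Their calls were lost without any one 1 h library, which does not enter this difference, and the differences of the 3 named then stood at 0.67 for SMURF2, 0.52 for INHBA and 0.47 to 0.48 for RGMB. No gene fell in this fit, but KCP, at −2.06 ± 0.40 (adjusted p = 0.051), lay near the threshold and was called lower with 2 other scalings, a minimum count of 50 and limma-voom. BAMBI was called lower by DESeq2. Without the 6 h control 6 genes were called higher and 8 lower, and without the 6 h EV library 7 higher and 8 lower, each from 1 library against 1.

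Between 6 h and 1 h with atRAL, 15 pathway genes rose and 9 fell, 38.7% of those tested against 20.2% of all. Besides BMPR1B at 2.04 ± 0.26 (adjusted p = 0.004), this comparison called BAMBI, a pseudoreceptor that blocks type I receptors, at 1.07 ± 0.17 (adjusted p = 0.0087). RGMA fell by 2.30 ± 0.38 (adjusted p = 0.0087). RUNX2, a bone transcription factor that BMPs induce, fell by 0.84 ± 0.18 (adjusted p = 0.022). RUNX2 was no longer called when the control or EV library of 6 h was left out, neither of which enters this difference. Over the 8 fits without 1 library its difference ran from −1.21 to −0.48. Without atRAL none was called by edgeR, with 14 at an unadjusted p under 0.05 and 2 called by DESeq2. Yet the genes named here went the same way there, in control and EV. BMPR1B stood at 0.736 and 0.844 CPM at 1 h against 1.79 and 1.69 CPM at 6 h. RGMA stood at 1.19 and 1.36 CPM against 0.734 and 0.546 CPM. The atRAL effect at 6 h minus at 1 h was called for none of BMPR1B, BAMBI, RGMA and RUNX2. A minimum count of 50 called it for BAMBI and RGMA, and DESeq2 for BAMBI.

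Patterns over the 8 libraries were compared by Pearson's r of log2 CPM, as a description over libraries that share a cell line and the layout of conditions. Among the 10 genes, BMP4 was closest to GDF6 (r = 0.987) and then to BMP6 (0.86). BMP2 ran against BMP6 (−0.893), BMP4 (−0.814) and GDF6 (−0.727), and ID2 and ID3 had r = 0.701. SMAD6 ran against the same ligands, at −0.709 for BMP6, −0.818 for BMP4 and −0.789 for GDF6. Over 1831 protein-coding genes that varied at least 2-fold, the 5 most like BMP2 were MBOAT2 (0.982), NES (0.981), SAMD9 (0.977), HOMER1 (0.969) and TFPI2 (0.962). Of those most like BMP4, 4 were DAPK1 (0.996), CNN2 (0.995), FAT4 (0.994) and THBS1 (0.993). The value of r does not reflect the size of a change, and all these genes varied less than BMP2 and BMP4. BMP4 ran from 1.76 to 48.5 CPM, against 33.3 to 87.0 CPM for DAPK1 and 783 to 5054 CPM for THBS1. BMP2 ran from 4.03 to 65.8 CPM, against 41.6 to 113 CPM for MBOAT2. ID1 had no such close match, with STX1A (0.854) and PDGFA (0.851) ahead of PHLDA2 (0.839), ZNF92 (0.831) and CAMK2B (0.829).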

How the data were processed

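Per the labels' protocols, RNA was taken up in TRIzol and libraries were built with Illumina's TruSeq Stranded mRNA kit. A table of 46427 genes was used, in which the authors deposited raw read counts, whole numbers that were not normalised. Per the file headers, FPKM and TPM, both scaled by the authors to transcript length and library size, stand beside the counts. HISAT2 2.1.0, StringTie 2.1.3b and GRCh38 are named in the submitters' processing notes. Which counter, annotation and strand setting were used is not given.

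The 10 genes and the pathway lists were chosen with earlier results of these data known. Genes were kept by filterByExpr with a minimum count of 10 (17044 kept, 29383 left out), scaled by TMM and tested by edgeR 4.0.16's quasi-likelihood F test (robust, two-sided) in R 4.3.3, with Benjamini-Hochberg adjustment over all of them. The effects of atRAL and EV came from a model of time with atRAL and EV each nested in time. The effects of time came from a model of the 4 time-by-atRAL combinations, with EV nested in atRAL status. Each has 6 coefficients and 2 residual degrees of freedom, and the biological coefficient of variation was 9.66% and 13.9%. Because no condition has a replicate, the first model counts any interplay of atRAL and EV as spread. Likewise the second counts any change of the EV effect between 1 h and 6 h as spread. On simulated data the fits made more false calls than the threshold names. SE is the size of the log2 fold change divided by the square root of F.

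Named are all 10 genes, up to 4 called genes with the largest change per pathway list and comparison, and the 5 genes with the highest r with BMP2, BMP4 and ID1. Single values of 3 genes that meet the rule or belong to the lists are not reported here. SMAD7 and TCF3 for atRAL at 6 h were named outside that rule, after their values were seen. Floors of 3 counts (0.0418 to 0.0658 CPM) cover counting error only. Of the genes, 44698 matched RefSeq, and 8 of the 10 genes had a promoter entry. Alternatives were 3 other scalings, other filters, DESeq2 1.42.0, limma 3.58.1 on counts and on FPKM with pseudocounts of 1 and 0.1, models without the EV term or with 6 h alone, and leaving out each library.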

Additional observations from a re-analysis of the deposited data

Results flagged for a closer look

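The effect of atRAL differed between 6 h and 1 h for 16 pathway genes by edgeR's quasi-likelihood test of the difference itself, 25.8% of those tested against 13.4% of all genes. Of these 16, 15 are given here. Among extracellular modulators and ligands, the log2 difference (6 h minus 1 h) was 3.20 for KCP (adjusted p = 0.016), −1.40 for FST (adjusted p = 0.023), −0.51 for CRIM1 (adjusted p = 0.029) and −0.46 for GDF11 (adjusted p = 0.036). Among receptors, SMADs and their regulators it was 0.79 for ACVR1 (adjusted p = 0.01), 1.06 for SKIL (adjusted p = 0.0033), 0.66 for SMURF1 (adjusted p = 0.02), 0.54 for SMAD4 (adjusted p = 0.019), 0.44 for PPM1A (adjusted p = 0.04) and 0.46 for SMAD7 (adjusted p = 0.028). For the E protein TCF4 it was −0.65 (adjusted p = 0.029). In the TGF-beta and activin branch it was 0.66 for INHBA (adjusted p = 0.012), −0.95 for TGFBR2 (adjusted p = 0.0059), 0.62 for SMAD2 (adjusted p = 0.014) and 0.54 for LTBP1 (adjusted p = 0.027). All 16 calls were lost without any one 1 h library.

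For 2 members, both pairs of libraries on one side went the opposite way in CPM to both on the other, and the difference was not tested. The rule was applied to several contrasts of each member. The share of all genes that meet it was not taken, so nothing is read from this count. The log2 ratio of BMP4 with EV was −0.16 at 1 h and −1.06 at 6 h without atRAL, against 0.04 and 0.65 with it, a mean difference of 0.95. Of these, the 1 h ratio of 0.04 lies close to no difference. The log2 ratio of BMPER with EV was −0.30 and −0.22 at 1 h, against 2.02 and 1.50 at 6 h, a mean difference of 2.02. In the deposited TPM the 1 h pairs of BMPER stood at −0.27 without atRAL and 0.41 with it. The sign at 1 h is thus not stable for BMPER.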

How the results depend on the processing

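No paired analysis was possible because each condition has 1 library and no numbered replicate; the EV term does set libraries of the same EV status against each other, and leaving it out was an alternative. Of 1140 values of the 10 genes under alternatives, 921 moved by less than 1 SE, 219 by more, and no called value changed sign. Over 121 medians of all genes under these settings, the shift was −0.064 to 0.056. Leaving out 1 library at a time gave 24 to 35 pathway genes called for atRAL at 6 h (31 in all), 0 in every fit for atRAL at 1 h, 0 to 27 for the difference between times, 0 to 3 for EV at 1 h, 0 to 15 for EV at 6 h (up to 7 higher and 8 lower), 0 to 8 for time without atRAL and 13 to 28 for time with atRAL. The genes called in these fits were not always those called with all libraries. The difference between times gave 8 calls with FPKM + 1 and 10 with FPKM + 0.1, against 16. EV at 6 h gave 0 without a filter, 0 with FPKM + 1 and 0 with FPKM + 0.1, against 4. DESeq2 gave 3 calls for EV at 1 h and 2 for time without atRAL, against 0 for both. For atRAL at 6 h, 4 of 6 calls were lost without the EV term, those of BMP2 (2.06), BMP6 (−0.71), BMPER (−1.09) and GREM1 (−1.02). With 6 h alone those of BMP4 (−3.90) and BMP6 (−0.64) were lost, and that of BMP6 also without a filter (−0.65) and with FPKM + 1 (−0.53). With FPKM + 1 those of BMP2 (1.47) and BMPER (0.74) for EV at 6 h and of SMAD6 (0.77) between times with atRAL were lost. Other settings also called further members, and these calls too are description, since the members were chosen on these values. DESeq2 called BMP2 (2.25), BMP6 (−0.81) and GREM1 (−0.50) between times with atRAL, and GREM1 (0.58) for EV at 6 h. For the atRAL effect at 6 h minus at 1 h, DESeq2 also called GREM1 (−0.82). There BMPER was called with upper quartile scaling (−1.02) and a minimum count of 50 (−0.96). ID1 for atRAL at 1 h (0.63) and ID3 for EV at 1 h (−0.43) were called without any one 6 h library. The causes were not tested.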
